A study of Rattus norvegicus with 8 samples.

Results

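NRF2 (gene Nfe2l2), its inhibitor KEAP1 (gene Keap1) and 7 genes that NRF2 switches on were followed in peripheral whole blood of male Wistar rats. The members were the probe sets that the platform annotation maps to exactly 1 of the 9 gene symbols. There were 14 of them among 31042 probe sets tested, or 9 of 14217 genes with such a probe set. Srxn1 had 3 probe sets, Keap1, Gclc and Txnrd1 had 2 each, and Nfe2l2, Hmox1, Nqo1, Gclm and Slc7a11 had 1 each. All 14 were kept, with no filter on low values. The rule matches symbols, but the genes were picked with earlier results of these data known.

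Rats bought at 7 weeks of age ate, for 8 weeks after acclimation, either a high-fat diet (Quick fat) or the same diet with 1% mulberry leaf powder, 10 rats to a diet. Blood was taken on day 56 after an overnight fast, and each diet is represented by 4 Affymetrix arrays, called biological replicates in the labels. Whether rats were pooled for an array is not stated, and the tests reflect only the variation among the arrays at hand, which may in part be technical. Both groups ate high-fat food, and a normal-diet group was not analysed here.

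NRF2 is a transcription factor that KEAP1 holds in the cytoplasm and hands to a CUL3 ubiquitin ligase for degradation. Electrophiles and oxidants modify cysteines of KEAP1, NRF2 then escapes, pairs with small MAF proteins and binds antioxidant response elements near its target genes. The targets followed here degrade haem (Hmox1), reduce quinones (Nqo1), supply cystine and make glutathione (Slc7a11, Gclc, Gclm) and repair oxidised thiols (Txnrd1, Srxn1). Much of this control acts on NRF2 protein, which arrays do not measure. In whole blood a transcript level is a mixture of cell types, so fewer cells of a type and less RNA per cell cannot be told apart.

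The core of the antioxidant response element, TGACNNNGC (N is any base), was searched on both strands of RefSeq promoter windows (build GRCr8) that run from 250 bases before a gene's start to 50 after it. Among 33469 windows of that length 12.1% held it, and 3 of 9 windows of 8 members did. Gclm had a match 172 bases before its start, 1 of 2 Txnrd1 windows had one 78 bases before its start, and Nfe2l2 had one beginning at base 39 after its start. Nothing was found in the windows of Keap1, Nqo1, Gclc, Slc7a11 and Srxn1, which says only that these letters are absent from those windows, since response elements can lie much farther away. The 3 matches are shown because they are the places within these windows where the letters read by NRF2 occur. The match is in capitals and lies antisense in Gclm and Txnrd1. For Gclm and Txnrd1 the 250 bases before the start are given (chr2:213031885-213032134, plus strand, and chr7:22755905-22756154, minus strand), and for Nfe2l2 the 22 bases around the match (chr3:81028950-81028971, minus strand).
Gclm: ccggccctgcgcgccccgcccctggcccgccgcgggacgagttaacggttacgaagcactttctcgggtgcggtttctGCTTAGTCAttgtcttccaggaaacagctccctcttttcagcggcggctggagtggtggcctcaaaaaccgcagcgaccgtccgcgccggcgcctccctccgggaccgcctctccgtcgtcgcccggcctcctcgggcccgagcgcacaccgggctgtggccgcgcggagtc
Txnrd1: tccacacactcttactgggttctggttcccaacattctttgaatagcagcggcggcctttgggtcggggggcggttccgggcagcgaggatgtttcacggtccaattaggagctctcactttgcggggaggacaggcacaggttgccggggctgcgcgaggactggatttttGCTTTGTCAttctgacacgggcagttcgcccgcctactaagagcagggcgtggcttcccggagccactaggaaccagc
Nfe2l2: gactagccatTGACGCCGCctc
The motif matches are descriptions of sequence and not binding sites measured in these samples.

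The deposited values are read as log2 probe set summaries, but the spread between arrays was compressed, with a median SD of 5.31e-06 over the 8 arrays. Each value is therefore given as its distance from the probe set's own mean in units of its SD across arrays (8 in all), and a difference is mulberry minus high-fat on that scale. Such a difference is no fold change. Under an alternative, a difference is in units of the SD of the values and arrays used there. Leaving out an array therefore changes the unit as well as the means. Among the blood cell markers measured, the brightest were the haemoglobin chain gene Hbb (deposited log2 level 15.09) and Alas2 of red cell haem synthesis (13.86). Lyz2 of myeloid cells (13.18) and the platelet gene Pf4 (12.67) came next. Levels ran widely within a list, from 11.10 (S100a9) to 6.13 (Lcn2) for neutrophil and from 10.52 (Cd3g) to 6.84 (Cd4) for T cell markers. The dimmest monocyte and platelet markers were Ccr2 (6.34) and Selp (6.91). High-fat replicate 4 stood apart from the other 7 arrays, with the highest score on the monocyte (1.87) and natural killer cell (2.08) marker lists and the lowest on the platelet list (-1.38), where a score is the mean of the markers in SD units.

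No member passed the test for a difference between the diets. In limma's test over all probe sets, 0 of the 14 had an adjusted p under 0.05 against a background of 0% of all probe sets, and 0 had an unadjusted p under 0.05 against 4.36%. The diets overlapped for all 14, whereas they did not overlap for 2.52% of all probe sets. The mean was lower with mulberry in 9 of the 14 and higher in 5, and 47.3% of all probe sets were lower. The median difference was -0.0997 over the members and 0.0559 over all probe sets. Differences ran from -0.673 to 0.707 SD units, and 34% of all probe sets had a difference at least as large as the largest of these. The adjusted p was 1 for every member (limma, Benjamini-Hochberg), and the two-sided exact permutation p over 70 assignments of the arrays ran from 0.4 to 1, where 0.0286 is the smallest that 4 against 4 arrays allow. The split of 9 lower and 5 higher depended on scaling, with 1 lower and 13 higher once each array was centred on its median, when 3.07% of all probe sets were lower.

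**Figure D1:**
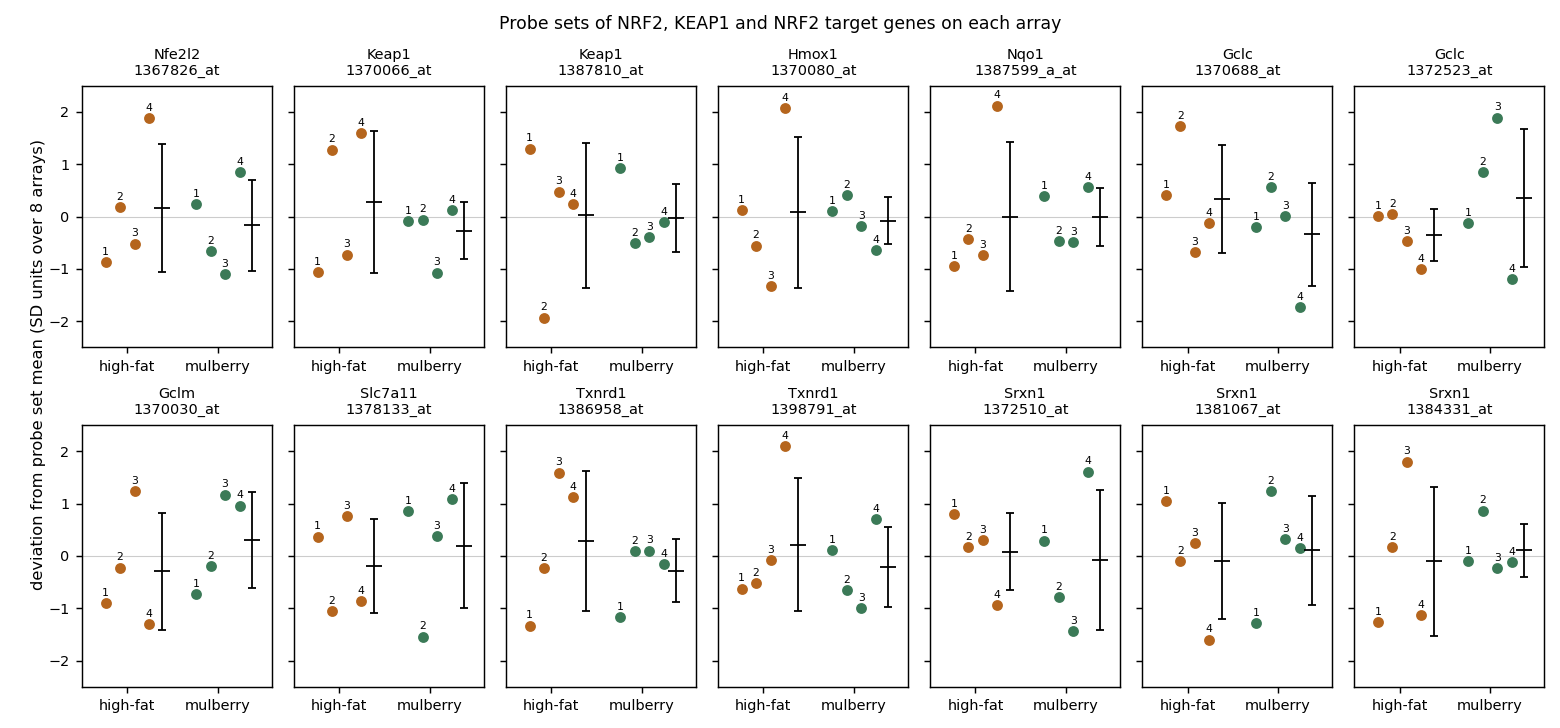
Deviation of each probe set from its own mean (vertical axis, SD units over the 8 arrays) for the 4 high-fat and 4 mulberry arrays, with replicate numbers beside the points and the mean ± SD of each diet as bars. The diets overlap in all 14 panels, and high-fat replicate 4 is the highest array for Nfe2l2, Hmox1, Nqo1, 1 Keap1 and 1 Txnrd1 probe set.

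Nfe2l2, the transcription factor itself, had a mean level of 7.18 (log2). The high-fat arrays stood at -0.868, 0.175, -0.517 and 1.88 SD units in replicates 1 to 4, and the mulberry arrays at 0.235, -0.655, -1.1 and 0.848. High-fat replicate 4 was the highest of the 8 and mulberry replicate 3 the lowest, and the ranges of the diets overlapped. The means were 0.168 ± 1.22 (SD, n = 4) and -0.168 ± 0.875 (SD, n = 4), a difference of -0.336 ± 0.751 (SE) with a 95% interval from -2.02 to 1.34. Without high-fat replicate 4 the difference was 0.335. Its SD over all 8 arrays was 0.000228 (log2), at the 98.1st percentile of all probe sets. This ranks the compressed spread over both diets together, and not the variation among samples of 1 diet.

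Keap1, the sensor that holds NRF2 back, was read by 2 probe sets that disagreed, of which 1387810_at was dimmer than the median probe set. Probe set 1370066_at (level 7.49) stood at -1.06, 1.28, -0.726 and 1.59 in the high-fat arrays and at -0.0851, -0.0588, -1.07 and 0.128 in the mulberry arrays. High-fat replicates 2 and 4 were high there and the rest lay near or below the mean, giving a difference of -0.545 ± 0.731 (SE). It was -0.128 without high-fat replicate 4 and -0.226 without high-fat replicate 2, and leaving out single arrays gave -1.01 to -0.128. Probe set 1387810_at (level 6.19) stood at 1.3, -1.93, 0.479 and 0.24 in the high-fat and 0.923, -0.504, -0.399 and -0.105 in the mulberry arrays, a difference of -0.0426 ± 0.764 (SE), which was 0.0282 without high-fat replicate 4. High-fat replicate 2 was thus the lowest array for 1 Keap1 probe set and the second highest for the other, and their correlation over the 8 arrays was -0.493. The 95% intervals, from -2.52 to 1.42 and from -1.75 to 1.67, leave the direction for Keap1 undetermined.

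Hmox1 encodes haem oxygenase, which breaks haem into biliverdin, iron and carbon monoxide and is prominent in macrophages that clear red cells. At a level of 7.19 its probe set stood at 0.131, -0.553, -1.33 and 2.07 in the high-fat arrays and 0.104, 0.408, -0.18 and -0.644 in the mulberry arrays. The mulberry arrays lay inside the high-fat range, whose ends were replicates 3 and 4. The means were 0.0783 ± 1.45 and -0.0783 ± 0.447 (SD, n = 4 each), a difference of -0.157 ± 0.761 (SE, 95% interval -1.86 to 1.55). Without high-fat replicate 4 the difference was 0.854.

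Nqo1, the quinone reductase often used as a readout of NRF2 activity, had a level of 6.92 and the smallest difference of all 14 probe sets. The high-fat arrays stood at -0.941, -0.431, -0.737 and 2.12 and the mulberry arrays at 0.386, -0.466, -0.483 and 0.557. High-fat replicate 4 alone stood high, while the other 3 high-fat arrays were among the lowest 5 of the 8. The means were 0.00165 ± 1.42 and -0.00165 ± 0.551 (SD, n = 4 each), and the difference was -0.00331 ± 0.764 (SE, 95% interval -1.71 to 1.7). Without high-fat replicate 4 the difference was 1.25 in SD units of the arrays left (limma adjusted p = 1.0). That was the widest shift of a printed difference that leaving out 1 array gave among the members. The unit changed with that array, so the shift is not one of the means alone. The SD of Nqo1 between arrays lay at the 96.6th percentile.

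Gclm, the modifier subunit of glutamate-cysteine ligase, which catalyses the rate-limiting step of glutathione synthesis, had a level of 10.21. It stood at -0.899, -0.224, 1.24 and -1.31 in the high-fat arrays and at -0.737, -0.199, 1.17 and 0.961 in the mulberry arrays. High-fat replicate 3 and mulberry replicates 3 and 4 were high, and high-fat replicate 4 was the lowest, the reverse of its place for Nfe2l2. The means were -0.298 ± 1.12 and 0.298 ± 0.916 (SD, n = 4 each), a difference of 0.597 ± 0.724 (SE, 95% interval -1.02 to 2.22). Leaving out single arrays gave differences from 0.282 to 1.19, and the mean was higher with mulberry under every alternative run. The SD of Gclm lay at the 96.9th percentile, so that it, Nfe2l2 and Nqo1 were the 3 members above the 95th.

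Gclc, the catalytic subunit of the same ligase, had 2 probe sets with opposite signs, of which 1370688_at was dimmer than the median probe set. Probe set 1372523_at (level 7.79) stood at 0.0146, 0.0478, -0.463 and -1.01 in the high-fat arrays and -0.118, 0.847, 1.89 and -1.2 in the mulberry arrays, a difference of 0.707 ± 0.707 (SE, 95% interval -0.906 to 2.32). Probe set 1370688_at (level 6.28) stood at 0.407, 1.73, -0.672 and -0.125 in the high-fat arrays and -0.195, 0.567, 0.0137 and -1.73 in the mulberry arrays, a difference of -0.673 ± 0.713 (SE, 95% interval -2.27 to 0.93). These were the largest differences of either sign among the members, and mulberry replicate 4 was the lowest array for both. Both moved when single arrays were left out. The difference of 1372523_at was 0.28 without mulberry replicate 3, 0.494 without high-fat replicate 4 and 1.3 without mulberry replicate 4. That of 1370688_at was -0.268 without high-fat replicate 2, -0.269 without mulberry replicate 4 and -0.97 without high-fat replicate 3. Slc7a11, the cystine importer, had a level of 6.38, dimmer than the median probe set. It stood at 0.368, -1.05, 0.764 and -0.863 in the high-fat and 0.851, -1.54, 0.375 and 1.09 in the mulberry arrays. Its highest and its lowest value were both mulberry arrays, with a difference of 0.392 ± 0.747 (SE, 95% interval -1.32 to 2.1). Leaving out single arrays moved it from 0.0956 (mulberry replicate 4) to 1.15 (mulberry replicate 2), and it was 0.168 without high-fat replicate 4.

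Txnrd1, the cytosolic thioredoxin reductase, had 2 probe sets, of which 1386958_at was dimmer than the median probe set. Their correlation over the 8 arrays was 0.395. Probe set 1398791_at (level 7.42) stood at -0.625, -0.527, -0.0868 and 2.09 in the high-fat arrays and 0.104, -0.658, -1.0 and 0.705 in the mulberry arrays. High-fat replicate 4 was again the highest and mulberry replicate 3 the lowest, as for Nfe2l2. The difference was -0.426 ± 0.744 (SE, 95% interval -2.09 to 1.24), and 0.346 without high-fat replicate 4. Probe set 1386958_at (level 6.45) differed by -0.566 ± 0.728 (SE, 95% interval -2.29 to 1.16), with high-fat replicate 3 highest (1.59) and high-fat replicate 1 lowest (-1.33). Without these arrays the difference was -0.159 and -1.21 respectively, and it was -0.3 without high-fat replicate 4.

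Srxn1 encodes sulfiredoxin, which restores overoxidised peroxiredoxins. Its 3 probe sets, at levels of 6.65, 6.03 and 6.23, had differences of -0.161 ± 0.761, 0.206 ± 0.759 and 0.21 ± 0.759 (SE), which were -0.503, -0.354 and -0.137 without high-fat replicate 4. Their correlations with each other over the 8 arrays were 0.117, 0.0056 and 0.286. The highest array was mulberry replicate 4 (1.61) for 1372510_at, mulberry replicate 2 (1.23) for 1381067_at and high-fat replicate 3 (1.8) for 1384331_at. The 3 probe sets therefore placed the same samples in different orders, and 1381067_at and 1384331_at were dimmer than the median probe set.

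**Figure D2:**
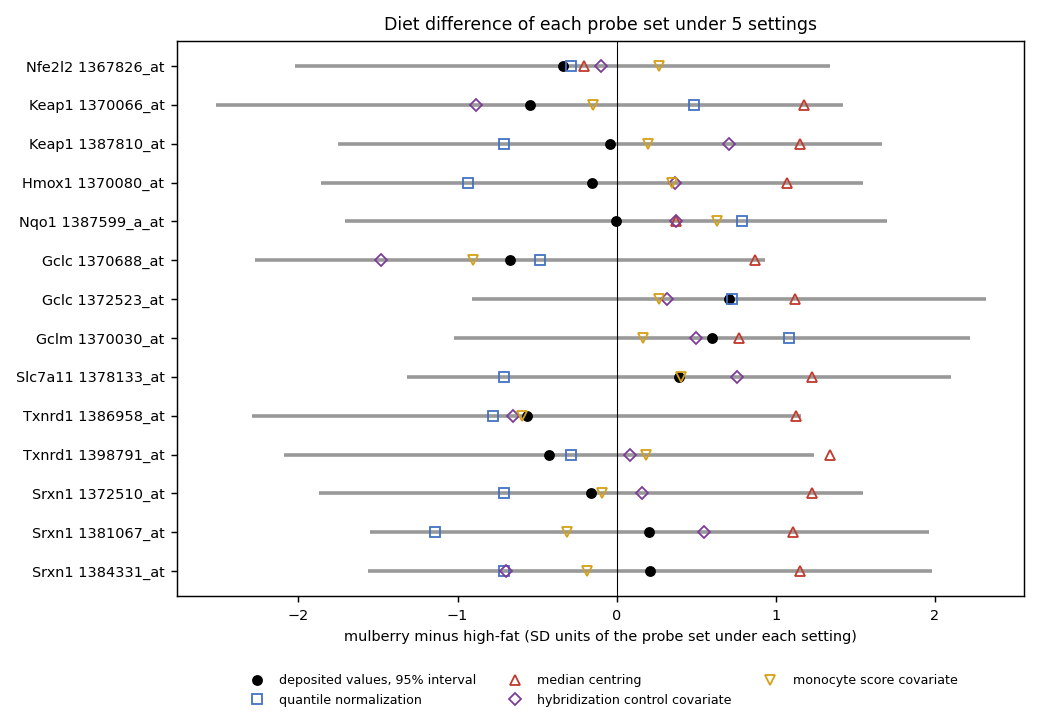
Mulberry minus high-fat difference of each probe set (horizontal axis, SD units under each setting) on the deposited values with its 95% interval from limma, and under 4 alternatives as open symbols. Every interval includes 0, and median centring moves 13 of the 14 differences above 0.

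Nfe2l2 was compared with the other 13 member probe sets over the 8 arrays, which share the scaling of each array. Nqo1 followed it with Pearson's r = 0.929 (exact permutation p = 0.00188, adjusted over the 13 pairs 0.0122) and Spearman's rho = 0.881 (exact permutation p = 0.00724, adjusted 0.0471). Txnrd1 probe set 1398791_at followed it with r = 0.941 (exact permutation p = 0.00124, adjusted 0.0122) and rho = 0.952 (exact permutation p = 0.00114, adjusted 0.0148). Keap1 probe set 1370066_at gave r = 0.831 (exact permutation p = 0.0089, adjusted 0.0386) and rho = 0.833 (exact permutation p = 0.0154, adjusted 0.0501). The other probe set of each gene gave no such relation past the threshold, with r = 0.261 for Txnrd1 1386958_at (adjusted exact permutation p = 0.703) and -0.0526 for Keap1 1387810_at (adjusted exact permutation p = 0.897). Both of these were dimmer than the median probe set. As background, 0.773%, 0.485% and 4.29% of probe sets naming 1 gene had r with Nfe2l2 at least as high as Nqo1, Txnrd1 1398791_at and Keap1 1370066_at. These shares count positive r only, whereas the tests are two-sided.

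These relations changed, to unlike degrees, when 2 arrays were left out or the scaling was changed. High-fat replicate 4 and mulberry replicate 4 were the 2 arrays farthest from the median of Nfe2l2. Without them r was 0.673 for Nqo1 and 0.703 for Txnrd1 1398791_at (exact permutation p = 0.125 for each over 6 arrays). For Keap1 1370066_at r was then 0.793 (exact permutation p = 0.0486). Leaving out these arrays narrows the range of Nfe2l2 and lowers the number of arrays, which by itself weakens the test. The values therefore cannot decide how far the relations rest on those 2 arrays. With each array centred on its median, an alternative added after the data were seen, r was 0.863 for Nqo1, 0.032 for Txnrd1 1398791_at and -0.681 for Keap1 1370066_at. The array medians lay from -5.1e-05 to 4.26e-05 around their mean (log2), beyond the SD of that Txnrd1 (2.29e-05) and Keap1 (1.45e-06) probe set but not that of Nqo1 (0.000107), so that centring by its construction mostly wrote the array offset into those Txnrd1 and Keap1 values. It therefore does not rank the 3 relations. Hmox1 gave r = 0.54 (exact permutation p = 0.169) and Gclm r = -0.412 (exact permutation p = 0.314). Srxn1 probe set 1381067_at ran against Nfe2l2 with r = -0.77 and rho = -0.833 (adjusted exact permutation p = 0.072 and 0.0501), and Gclc probe set 1372523_at with r = -0.765 and rho = -0.81 (adjusted exact permutation p = 0.072 and 0.0567). Of probe sets naming 1 gene, 96.5% and 96.3% had r with Nfe2l2 at least as high as these 2. All remaining pairs, Hmox1 and Gclm included, had adjusted exact permutation p from 0.366 to 0.897 for r and from 0.579 to 1.0 for rho.

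Monocyte and natural killer cell marker scores moved with some of the same probe sets. Of 9 measured monocyte genes 8 had lower means with mulberry, and their score ran from -0.521 to 1.87 in the high-fat arrays and from -1.11 to 0.435 in the mulberry arrays. Its correlation over the 8 arrays was 0.908 with Txnrd1 probe set 1398791_at (exact permutation p = 0.00486), 0.874 with Nfe2l2 (0.006) and 0.859 with Nqo1 (0.0147). Spearman's rho was 0.881, 0.833 and 0.667 (exact permutation p = 0.00724, 0.0154 and 0.0831). Among the 112 pairs of a member with a marker or control score none passed after adjustment (lowest adjusted exact permutation p = 0.281). Without high-fat replicate 4 and mulberry replicate 3, the farthest on the monocyte score, r was 0.536, 0.51 and 0.581. The natural killer cell score, with lower means in 10 of 10 genes, correlated with the same Txnrd1 probe set, Nfe2l2, Nqo1 and Keap1 1370066_at at 0.843, 0.79, 0.796 and 0.678 (exact permutation p = 0.0385, 0.0295, 0.0764 and 0.0397). Its rho was 0.595, 0.524, 0.262 and 0.548 (exact permutation p = 0.132, 0.197, 0.536 and 0.171), and without high-fat replicate 4 and mulberry replicate 3 its r was -0.0372, 0.109, -0.207 and 0.0774. In the other direction, the monocyte score correlated at -0.737 with Srxn1 1381067_at, -0.731 with Gclc 1372523_at and -0.691 with Gclm (exact permutation p = 0.0345, 0.0432 and 0.0442). With the monocyte score in the model the diet difference turned to 0.264 for Nfe2l2, 0.63 for Nqo1 and 0.185 for that Txnrd1 probe set. The part of either cell type in these profiles was not tested.

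Erythroid and neutrophil markers moved with others, and platelet markers with Gclm. The erythroid score, over 8 measured genes of which 5 had lower means, ran from -0.643 to 0.581 in the high-fat and from -0.741 to 0.461 in the mulberry arrays. It correlated with Slc7a11 at 0.83 (rho 0.738) and with Srxn1 probe set 1372510_at at 0.82 (rho 0.833), with exact permutation p = 0.0195 and 0.017, each 0.312 after adjustment over the 112 pairs. Without high-fat replicate 4 and mulberry replicate 2, r was 0.579 and 0.791. With Hmox1 the erythroid score gave r = -0.685 and rho = -0.762 (exact permutation p = 0.0413 and 0.0368), and r = -0.313 without those arrays. The neutrophil score gave r = -0.851 and rho = -0.905 with Gclc 1370688_at (exact permutation p = 0.00754 and 0.00456, adjusted 0.281 and 0.345), and r = 0.818 and rho = 0.595 with Keap1 1387810_at (exact permutation p = 0.0177 and 0.132, adjusted 0.312 and 0.616). Without high-fat replicate 2 and mulberry replicate 2, the farthest on the neutrophil score, r was -0.562 and 0.254. The platelet score gave r = 0.677 and rho = 0.714 with Gclm (exact permutation p = 0.0471 and 0.0576, adjusted 0.352 and 0.496). Without high-fat replicate 4 and mulberry replicate 4, the farthest on the platelet score, that r was 0.45. The hybridization controls, bacterial transcripts spiked into every array, averaged -0.558 ± 0.856 in the high-fat and 0.558 ± 0.635 in the mulberry arrays (SD, n = 4 each, exact permutation p = 0.114). With their score in the model 5 of the 14 members were lower rather than 9, and 50.9% of all probe sets rather than 47.3%. The part of these controls and markers in the members' differences was not tested. Over the other marker lists the score difference was 0.315 for neutrophil, -0.369 for T cell, -0.634 for B cell, -0.899 for natural killer cell and 0.821 for platelet markers, with exact permutation p from 0.0571 to 0.686.

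**Figure D3:**
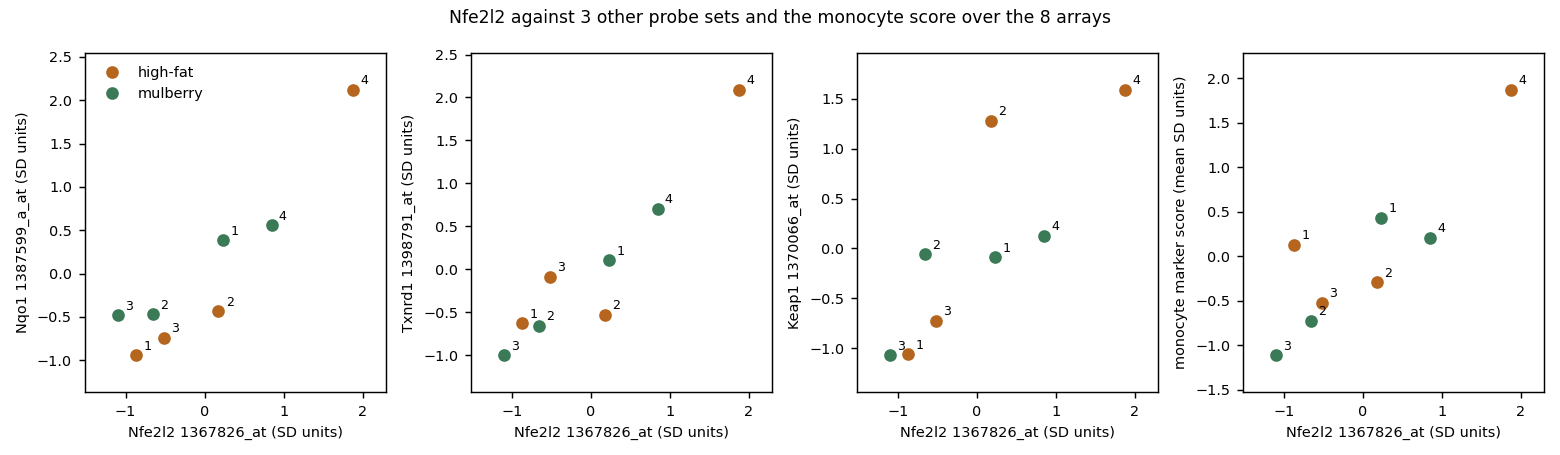
Nfe2l2 (horizontal axes, SD units) against Nqo1, 1 Txnrd1 and 1 Keap1 probe set and the monocyte marker score (vertical axes, SD units) on each array, with replicate numbers beside the points. High-fat replicate 4 lies at the top right of all 4 panels, and r for Nqo1 is 0.929 with it and mulberry replicate 4 and 0.673 without both.

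The genes whose pattern was most like a member's were found by Pearson's r over the 8 arrays among all probe sets naming 1 gene. For Nfe2l2 these were Dram2 (0.9921), Cpeb4 (0.9813) and Rab2a (0.9764), and 1.64% of 20825 probe sets had r above 0.9. For Keap1 probe set 1370066_at they were Copb2 (0.9903), Ppp3r1 (0.9867) and Isoc1 (0.9828), with 0.898% above 0.9. For Hmox1 they were Mark2 (0.9765), Pou2f2 (0.9632) and Pcif1 (0.9614), with 0.125% above 0.9.

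Other genes of the NRF2 pathway, in 6 lists by role, did not pass the test either. Of 72 symbols 63 were measured, with 1 probe set per gene, the one of highest mean. The test called 0 of the 63 (limma adjusted p), and 2 had an unadjusted p under 0.05, namely Gsk3b and Slc40a1, where 4.15% of all genes did. The mean was lower with mulberry in 33 and higher in 30, and 50.9% of all genes were lower. The median difference was -0.0696 over the 63 and -0.019 over all genes. Median centring left 8 of the 63 lower, when 3.07% of all probe sets were lower.

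Among 13 regulators and partners of NRF2, 6 had lower and 7 higher means (median 0.0665). Gsk3b, a kinase that marks NRF2 for degradation independently of KEAP1, stood at -0.692, 0.0847, -1.97 and -0.333 in the high-fat arrays and 1.28, 0.568, 0.467 and 0.596 in the mulberry arrays. All 4 mulberry arrays lay above all 4 high-fat arrays, a difference of 1.45 ± 0.48 (SE, limma unadjusted p = 0.0153, adjusted p = 1, exact permutation p = 0.0286). After quantile normalization, which set many differences to 0, the Gsk3b difference was 0. Bach1, a haem-binding repressor that competes with NRF2 at response elements, differed by 0.853 ± 0.68 (SE), with high-fat replicate 4 at -2.38.

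Of 5 genes of haem and iron handling 2 were lower and 3 higher (median 0.422), and 2 of the 5 did not overlap between diets. Over all 6 lists 3 of 63 did not overlap, beside 2.52% of all probe sets. Slc40a1 encodes ferroportin, the iron exporter that NRF2 can raise in macrophages. It stood at -0.648, -0.705, -0.222 and -1.56 in the high-fat and 0.392, 0.563, 0.467 and 1.71 in the mulberry arrays, a difference of 1.57 ± 0.418 (SE). Every mulberry array was above every high-fat array, with exact permutation p = 0.0286, the smallest possible, limma unadjusted p = 0.00562 and adjusted p = 1. The Slc40a1 difference ran from 1.54 to 1.63 when single arrays were left out. It was 1.59 after median centring, which raised the median difference of all probe sets to 1.15. After quantile normalization, which set many differences to 0, it was 0. Because these 2 settings shift differences by construction, they do not decide how firm this one is. High-fat replicate 4 and mulberry replicate 4, the lowest and the highest array for Slc40a1, also had the lowest and the highest platelet marker score (-1.38 and 1.56), whose part in this difference was not tested. Hmox2, the constitutive haem oxygenase, differed the other way, with 0.246, 0.338, -0.00606 and 2.0 in the high-fat and -0.289, -0.474, -1.57 and -0.241 in the mulberry arrays. That was a difference of -1.29 ± 0.554 (SE, limma unadjusted p = 0.0529, adjusted p = 1, exact permutation p = 0.0286), which turned to 1.13 after median centring and 0.707 after quantile normalization.

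The 18 measured genes of glutathione synthesis and transfer were lower in 7 and higher in 11 (median 0.0633). Gss, glutathione synthetase, differed by 1.14 ± 0.604 (SE), and Slc3a2, the chain that partners Slc7a11 at the membrane, by -0.939 ± 0.661 (SE). The thioredoxin system had 4 lower and 4 higher of 8 (median -0.127), with Txnip, an inhibitor of thioredoxin, at -1.04 ± 0.634 (SE) and Sesn1, a stress-induced sestrin, at 0.946 ± 0.659 (SE). Of 5 enzymes that supply NADPH 4 were lower (median -0.15), with Tkt of the pentose phosphate pathway at -0.334 ± 0.751 (SE) and the malic enzyme gene Me1 at 0.695 ± 0.709 (SE). Of 14 detoxification genes 10 were lower (median -0.198), with Akr1a1, an aldehyde reductase, at -1.12 ± 0.611 (SE) and the carbonyl reductase gene Cbr3 at 0.814 ± 0.688 (SE). Single arrays moved several of these values, with Me1 at 0.141 without high-fat replicate 4, Tkt at 0.304 without high-fat replicate 4, Cbr3 at 0.485 without mulberry replicate 2 and 1.45 without mulberry replicate 4, Slc3a2 at -1.54 without mulberry replicate 4 and Txnip at -1.59 without high-fat replicate 3. The diets overlapped for each of these 8 named genes, and the list counts were not tested against the background.

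**Figure D4:**
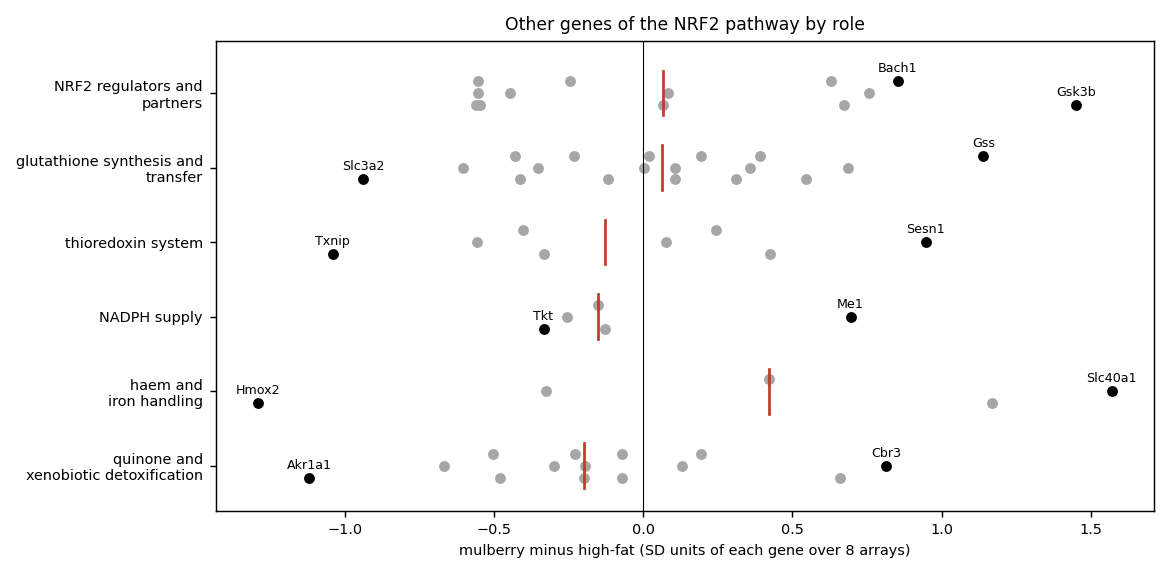
Mulberry minus high-fat difference (horizontal axis, SD units) of 63 other NRF2 pathway genes, 1 point each, by role, with the median of each list as a red line and the 2 genes of smallest unadjusted p in each list in black. The lists lie on both sides of 0, with medians from -0.198 to 0.422.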

How the data were processed

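Biotinylated aRNA made from 200 ng of total RNA of 8 blood samples was hybridised to Affymetrix arrays, per the labels. The authors deposited 1 table of values that are read as log2 summaries for 31099 probe sets, because they run from 5.17 to 15.26 on every array; their summary method, normalization and genome build are not given in sources used here. Signal over background was not used here, so the number of arrays limits the precision.

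The 57 manufacturer controls were left out. Of the 31042 probe sets tested, 20826 named 1 gene in the platform annotation, 436 named several and 9780 were unnamed here; 20758 matched RefSeq (GRCr8) by gene number. Differences between the diets were tested in R 4.3.3 by limma 3.58.1 (functions lmFit and eBayes, two-sided, no covariate, values as deposited), with Benjamini-Hochberg adjustment over all 31042 and a threshold of 0.05. Standard errors use the probe set's own spread, and 95% intervals the moderated one. Exact permutation tests (Python 3.11.15, numpy 2.4.6) used all 70 assignments of arrays, or all 40320 orders for correlations, two-sided. Tested on simulated data that kept each probe set's mean and spread, the fit called 38% of probe sets shifted by 4 within-group SDs and 98% at 8. Named genes were all members, the 2 of smallest unadjusted p in each pathway list, and the 3 closest patterns to Nfe2l2, Keap1 and Hmox1. The members and lists were chosen with earlier results of these data known. Alternatives were quantile normalization, median centring, marker or control scores as covariates, a replicate block, a filter on dim probe sets, other variance models, array weights and leaving out each array.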

Additional observations from a re-analysis of the deposited data

Results flagged for a closer look

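In 6 of 68 groups of 4 arrays, 1 array lay so far from the other 3 that its gap to the nearest, as a share of the group's range, exceeded Dixon's 95% critical value; chance alone gives about 1 in 20. High-fat replicate 4 stood at 2.12 SD units for Nqo1, the next high-fat array being at -0.431, and at -2.38 for Bach1, the next being at 0.0162. Mulberry replicate 2 stood at 0.867 for Srxn1 probe set 1384331_at, against -0.0956 for the next. Mulberry replicate 1 stood at 1.28 for Gsk3b, against 0.596, and mulberry replicate 4 at 1.71 for Slc40a1, against 0.563. The neutrophil marker score was -1.43 in high-fat replicate 2, against 0.119 for the next.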

How the results depend on the processing

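No member passed the threshold under any alternative run, and limma called 0 of all probe sets in each except quantile normalization, which called 12, of which 11 had equal values on all arrays of a diet, so that the spread was 0 by construction. Member probe sets lower with mulberry numbered 9 on the deposited values, 1 after median centring, 5 with the hybridization controls, and 6 to 9 when single arrays were left out (6 without high-fat replicate 4). Pathway genes lower numbered 33, then 14 after quantile normalization, which set many differences to 0, 8 after median centring, and 27 to 37 when single arrays were left out. Median centring, which raised the median difference of all probe sets to 1.15, turned Keap1 1370066_at to 1.18, Keap1 1387810_at to 1.15, Hmox1 to 1.07, Nqo1 to 0.37, Gclc 1370688_at to 0.869, Txnrd1 1386958_at to 1.13, Txnrd1 1398791_at to 1.34, Srxn1 1372510_at to 1.23, Hmox2 to 1.13 and Akr1a1 to 0.985. Quantile normalization turned Keap1 1370066_at to 0.483, Nqo1 to 0.787, Slc7a11 to -0.707, Srxn1 1381067_at to -1.14, Srxn1 1384331_at to -0.707, Txnip and Hmox2 to 0.707 and Cbr3 to -0.483. The hybridization controls turned Keap1 1387810_at to 0.704, Hmox1 to 0.367, Nqo1 to 0.374, Txnrd1 1398791_at to 0.0865, Srxn1 1372510_at to 0.161 and Srxn1 1384331_at to -0.694. The monocyte score turned Nfe2l2 to 0.264, Keap1 1387810_at to 0.196, Hmox1 to 0.347, Nqo1 to 0.63, Txnrd1 1398791_at to 0.185, Srxn1 1381067_at to -0.31, Srxn1 1384331_at to -0.189 and Tkt to 0.311. The erythroid score turned Keap1 1387810_at to 0.0652 and Srxn1 1372510_at to 0.0445, and array weights turned Nqo1 to 0.00678. Apart from the shifts by construction, the cause was not tested. Leaving out single arrays gave ranges across 0 of -0.673 to 0.335 for Nfe2l2, -1.03 to 0.418 for Keap1 1387810_at, -0.689 to 0.854 for Hmox1, -0.318 to 1.25 for Nqo1, -0.708 to 0.346 for Txnrd1 1398791_at, -0.884 to 0.329, -0.354 to 0.724 and -0.192 to 1.14 for Srxn1 1372510_at, 1381067_at and 1384331_at, and -0.699 to 0.304 for Tkt. Same-numbered arrays of the diets had correlated deviations of -0.0462, -0.0505, 0.246 and 0.163 and were not treated as pairs. For replicates 3 and 4, but not 1 and 2, the same-numbered array was the best match in the other diet. A replicate block cannot change a difference in this balanced design, and it left 0 members past the threshold.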
